A study of Homo sapiens with 6 samples.

Results

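The genes described here are the HOX genes and the members of 10 other homeobox families (engrailed, DLX, sine oculis, MSX, IRX, LHX, PBX with MEIS, PITX, NKX and EMX). They were taken by gene symbol, without use of any measured value, from a table of raw counts for MDA-MB-468, an established triple-negative breast cancer cell line. The symbols matched 73 of 31122 genes, of which 29 lie in the HOX clusters and 44 belong to the other families. The table held 11 matching HOXA genes, 9 HOXB genes and 9 HOXC genes, and no HOXD gene matched by symbol. Polyadenylated RNA was sequenced from 6 libraries of this line. In the first group, 3 libraries carry the genotype label GPR52 KO and come from populations edited with CRISPR-Cas9 at GPR52, whose product is a G protein-coupled receptor with no known ligand. The other 3 libraries carry the label WT and come from parental cells grown in wells of 1 plate. No other allele, agent or time is given for either group, and no control edited with a non-targeting guide was analysed here.

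HOX genes encode homeodomain transcription factors that set position along the body axis, and they sit in clusters in which gene order follows the order of expression from head to tail. The genes at one end of a cluster, with low numbers, act in the hindbrain and neck, while those at the other end, with the highest numbers, act in the lower trunk, the limb tips and the urogenital tract. In adult cells a HOX pattern is usually kept as a memory of origin, with Polycomb proteins holding clusters silent and Trithorax proteins keeping them open. HOX proteins bind DNA together with TALE homeodomain partners of the PBX and MEIS families, and the remaining families pattern the brain, limbs, face, heart and glands. In breast tissue several HOX genes are active in the epithelium, and EN1 is known as a factor of basal-like breast cancer.

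Promoters are shown first for 4 HOXA genes, because this cluster held most of the changes. HOXA13 and HOXA9 had the largest fold changes of the cluster, and HOXA10 and HOXA2 stayed below the threshold beside them. Each window runs from 250 bases before the RefSeq start to 50 bases from it, on the minus strand of chromosome 7 in GRCh38.p14, written 5′ to 3′ with CpG dinucleotides in capitals. The windows lie at chr7:27200042-27200341 for HOXA13, chr7:27165488-27165787 for HOXA9, chr7:27179812-27180111 for HOXA10 and chr7:27102634-27102933 for HOXA2. GRCh38 is a later build than that of the deposited tables, which hold no coordinates.
HOXA13: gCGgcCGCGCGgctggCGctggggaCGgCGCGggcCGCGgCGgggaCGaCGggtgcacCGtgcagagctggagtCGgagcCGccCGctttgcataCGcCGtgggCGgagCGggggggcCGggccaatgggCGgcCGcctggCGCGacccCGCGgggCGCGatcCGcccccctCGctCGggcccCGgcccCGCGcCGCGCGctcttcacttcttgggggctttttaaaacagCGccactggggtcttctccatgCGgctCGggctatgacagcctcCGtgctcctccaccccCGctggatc
HOXA9: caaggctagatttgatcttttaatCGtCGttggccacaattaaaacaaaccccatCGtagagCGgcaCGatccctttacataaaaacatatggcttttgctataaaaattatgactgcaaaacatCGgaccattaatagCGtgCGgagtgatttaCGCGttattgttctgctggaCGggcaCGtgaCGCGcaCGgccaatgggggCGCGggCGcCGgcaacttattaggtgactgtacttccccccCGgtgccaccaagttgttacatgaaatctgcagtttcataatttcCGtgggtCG
HOXA10: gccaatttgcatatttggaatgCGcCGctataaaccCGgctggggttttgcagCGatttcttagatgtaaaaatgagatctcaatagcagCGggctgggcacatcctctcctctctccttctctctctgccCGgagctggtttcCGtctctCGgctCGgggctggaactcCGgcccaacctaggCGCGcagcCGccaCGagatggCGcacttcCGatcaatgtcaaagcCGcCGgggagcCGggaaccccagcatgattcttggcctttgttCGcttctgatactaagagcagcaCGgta
HOXA2: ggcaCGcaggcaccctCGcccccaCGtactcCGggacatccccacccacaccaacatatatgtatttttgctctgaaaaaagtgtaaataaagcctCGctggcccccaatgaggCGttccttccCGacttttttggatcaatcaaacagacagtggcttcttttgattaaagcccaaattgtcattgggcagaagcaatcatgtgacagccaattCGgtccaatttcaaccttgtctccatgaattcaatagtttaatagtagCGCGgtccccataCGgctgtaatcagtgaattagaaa

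The HOXA13 window held 44 CpG and was 76.3% G or C, whereas HOXA9 held 22 CpG, HOXA10 held 21 and HOXA2 held 11. Windows were found in RefSeq for 39 of the 73 genes, leaving out chromosome 8, and 11 of these belonged to HOX genes. The 6 windows of HOX genes called higher had a median of 25.5 CpG, the 4 of HOX genes tested and not called had 18, and all 27305 RefSeq windows of this length had 14. The median was higher still, at 30.5 CpG, over the 28 windows of members of the other homeobox families. The ranges overlapped, at 13 to 44 CpG for the 6 and 11 to 27 CpG for the 4, and all 6 were HOXA windows. HOXC4 and HOXC5 had the same values (15 CpG, 51.7% G or C), so 1 window may stand for both among the 11. The TATA-box core TATAAA, searched on both strands, was found in 3 of 11 HOX windows (27.3%), HOXA9 and HOXA10 among them, and in 12.0% of all windows. TGATNNAT, the core bound by HOX with PBX, was found on either strand in HOXA2 alone among the 11 and in 7.60% of all windows. TAATTA, a core that many homeodomains bind, was in none of the 11 HOX windows and in 4.98% of all windows. None of the 3 motifs contains another, and a match is only a description of the letters.

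The labels were checked first. GPR52 had 645, 694 and 724 counts in the libraries labelled GPR52 KO, against 9, 1 and 0 counts in those labelled WT, so its transcript went against the label as a loss of expression. They are named KO-labelled and parental-labelled for this reason, and directions are those of the KO-labelled libraries. Library totals ranged from 25983764 to 27956600 counts in the KO-labelled group and from 25637794 to 31692454 in the parental-labelled group, which makes 1 count worth 0.0321 to 0.0397 CPM (counts scaled to library size, with TMM factors where values are given per library). The 6 epithelial markers were abundant in all libraries, summing to between 7943 and 12731 CPM in KO-labelled and between 9762 and 9810 CPM in parental-labelled libraries. Of these, EPCAM was called higher (log2 fold change 0.46), CDH1, KRT7 and KRT18 were called lower (-0.42, -0.33 and -0.46), and KRT8 and EGFR were not called (-0.37 and 0.21). Of 5 fibroblast markers in the table, COL1A1 rose by 1.80 (log2) and COL1A2 and LUM had at most 2 counts in every library. FAP was not called, at -0.61, and PDGFRB had too few counts to be tested. COL1A1 alone averaged 25.5 CPM in KO-labelled and 7.31 CPM in parental-labelled libraries, most of the sum of these markers. The 5 summed to between 24.2 and 31.8 CPM in KO-labelled libraries and between 8.98 and 11.3 CPM in parental-labelled ones. Of 5 immune markers, 4 had at most 2 counts in every library, and the 5 summed to at most 0.177 CPM in KO-labelled and 0.330 CPM in parental-labelled libraries. The 3 endothelial markers in the table summed to between 3.18 and 7.28 CPM in KO-labelled and between 3.69 and 4.22 CPM in parental-labelled libraries. CDH5 was called lower (log2 fold change -1.38), and KDR and VWF were not called (0.80 and 0.61). The part of fibroblast and endothelial genes in the results was not tested. In bulk RNA, more cells that express a gene and more RNA per cell cannot be told apart.

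Of the 73 genes, 53 had enough counts to be tested. A gene is called where the adjusted p of edgeR's quasi-likelihood test, with Benjamini-Hochberg adjustment over 17420 genes, is under 0.05. Over all tested genes 40.8% were called, 21% higher and 19.8% lower, so a call by itself is common in this comparison. Among the 25 tested HOX genes 11 were called higher, with a median log2 fold change of 0.46 over all 25, against 0.01 over all tested genes. These 11 are 44% of the HOX genes tested, a share near the background of calls in either direction. None of the 25 was called lower by edgeR, DESeq2 or limma voom, and 2 were lower at an unadjusted p under 0.05. The 28 tested genes of the other families divided evenly, with 8 called higher, 8 called lower (57.1% called in all) and a median log2 fold change of -0.04. Larger changes are rarer in the background: 6.67% of tested genes were called higher by over 2-fold and 1.34% by over 8-fold, where the 25 HOX genes numbered 7 and 3 and the 28 others 4 and 2. Lower by over 2-fold were 5.38% of all tested genes, and 4 of the 28. The libraries of the 2 groups did not overlap for 54.4% of tested genes (27.4% higher, 27.1% lower), for 14 of the 25 HOX genes (13 higher, 1 lower) and for 18 of the 28 others (8 higher, 10 lower). Entry to the test depended on level. HOXA6, HOXA7, HOXA9, HOXA13, HOXB13 and NKX2-5 exceeded the level that the filter asks for (0.359 CPM) in all 3 KO-labelled and in no parental-labelled libraries, and EN1 did the reverse, so for these 7 a difference in level was a condition of entry. HOXA9, HOXA13 and HOXB13 are the 3 HOX genes over 8-fold, and HOXA6 and HOXA7 are also among the 7 over 2-fold. NKX2-5 is 1 of the 2 others over 8-fold. The counts of large changes therefore rest in part on this condition and cannot be weighed against the background shares. Throughout, ± is the SD over 3 libraries. How the edited populations are related is not labelled (as clones, pools or subcultures), and the parental cells shared a plate, so the p-values may measure technical spread only.

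In the HOXA cluster 8 of 11 genes were called higher, against 21% of all tested genes. The genes from HOXA6 on, apart from HOXA10, had larger fold changes than HOXA2 to HOXA5. HOXA6, HOXA7, HOXA9 and HOXA13 exceeded the filter level in KO-labelled libraries alone, so for them a difference was a condition of entry. HOXA2 to HOXA5 exceeded it in both groups. Summed over the cluster, HOXA genes reached 46.2, 41.0 and 35.8 CPM in KO-labelled libraries, against 22.3, 25.3 and 23.1 CPM in parental-labelled ones. The 2 groups did not overlap in this sum.

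HOXA13, which patterns the limb tips and the genital tubercle, had 56, 26 and 46 counts in KO-labelled libraries, against 0, 2 and 3 in parental-labelled ones. It averaged 1.56 ± 0.60 CPM in KO-labelled and 0.0586 ± 0.0515 CPM in parental-labelled libraries, a log2 fold change of 4.64 (SE 0.61, adjusted p 4.4e-04). The gene was close to silent in the parental-labelled group and present in every KO-labelled library. HOXA11, a gene of forearm and uterine development, had 122, 135 and 76 counts in KO-labelled libraries, against 25, 22 and 17 in parental-labelled ones. That is 4.03 ± 1.14 CPM in KO-labelled and 0.749 ± 0.177 CPM in parental-labelled libraries, with a log2 fold change of 2.43 (SE 0.30, adjusted p 5.3e-04). HOXA9, known for its role in blood stem cells and leukaemia, had 38, 50 and 17 counts in KO-labelled libraries, against 3, 4 and 0 in parental-labelled ones. Its log2 fold change was 3.90 (SE 0.69, adjusted p 0.00256), and the lowest KO-labelled library still held over 3 times the CPM of the highest parental-labelled one, at 0.607 against 0.159 CPM. The fitted sizes rest on few parental-labelled counts. Without parental-labelled 1 or 3, HOXA13 had a log2 fold change of 4.05 or 5.25, and without parental-labelled 2 or 3, HOXA9 had one of 4.57 or 3.27.

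HOXA6 and HOXA7, which act in the trunk, rose as well. HOXA6 had 46, 46 and 31 counts in KO-labelled libraries, against 10, 6 and 9 in parental-labelled ones, a log2 fold change of 2.35 (SE 0.30, adjusted p 6.2e-04). HOXA7 had 22, 18 and 14 counts in KO-labelled libraries, against 0, 3 and 8 in parental-labelled ones, with a log2 fold change of 2.32 (SE 0.59, adjusted p 0.0148). Its parental-labelled counts were uneven, and the fold change was 1.71 without parental-labelled 1, 3.47 without parental-labelled 3, and 2.28 with the call lost (adjusted p 0.0530) without parental-labelled 2.

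HOXA3 and HOXA5 were already expressed in parental-labelled cells and moved by less. HOXA3, required in the mouse for the thymus and parathyroid, averaged 7.51 ± 0.906 CPM in KO-labelled and 5.13 ± 0.619 CPM in parental-labelled libraries, with a log2 fold change of 0.56 (SE 0.15, adjusted p 0.0177). HOXA5, needed for lung development in the mouse, had 142, 125 and 125 counts in KO-labelled libraries, against 92, 84 and 122 in parental-labelled ones, with a log2 fold change of 0.46 (SE 0.16, adjusted p 0.0479). HOXA5 stands at the threshold: its call held without KO-labelled 3 and was lost without each of the other 5 libraries, and its adjusted p was 0.0591 in DESeq2. HOXA3 lost its call without parental-labelled 1 or 3 (adjusted p 0.0787 and 0.0802).

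HOXA2, HOXA4 and HOXA10 were not called. HOXA2, which patterns the hindbrain and middle ear, had 29, 32 and 30 counts in KO-labelled libraries, against 28, 27 and 43 in parental-labelled ones, a log2 fold change of -0.04 (SE 0.22). HOXA4 had a log2 fold change of 0.36 (SE 0.26). HOXA10, a gene of the uterus, lies between HOXA9 and HOXA11 and had 309, 261 and 167 counts in KO-labelled libraries, against 196, 183 and 171 in parental-labelled ones. Its log2 fold change was 0.48 (SE 0.24, adjusted p 0.139), and without KO-labelled 3 it was called at 0.71 (adjusted p 0.00299).

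KO-labelled 3 was the lowest of its group for all 5 genes from HOXA6 to HOXA11, at 2.71 CPM of HOXA11 against 4.60 and 4.77 CPM in KO-labelled 1 and 2. HOXA13 departed from this, with its lowest value in KO-labelled 2. KO-labelled 3 was lowest for 7 of 11 HOXA genes and for 40.0% of all tested genes. The median SD of log2 CPM among KO-labelled libraries was 0.333 over HOXA genes, 0.240 over HOXB, 0.226 over HOXC and 0.187 over all tested genes, while in parental-labelled libraries it was 0.200 for HOXA, 0.105 for HOXB, 0.110 for HOXC and 0.0858 for all tested genes.

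**Figure D1:**
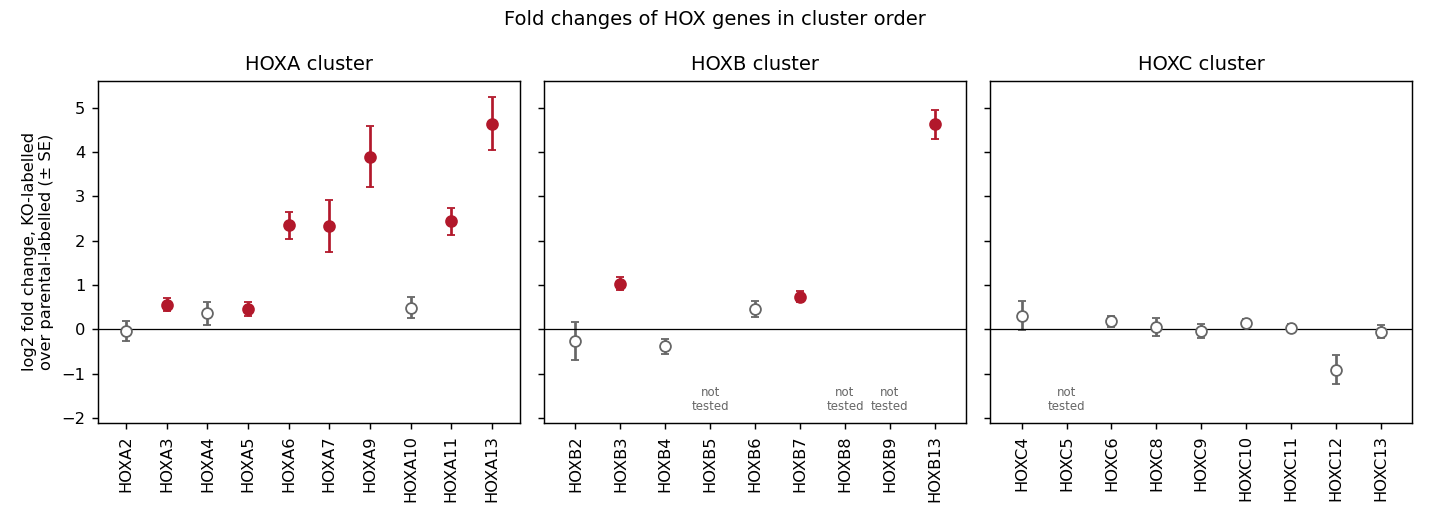
Log2 fold change of KO-labelled over parental-labelled libraries (vertical axis, bars are the SE of edgeR's fit) for the HOX genes named here, ordered along each cluster. Filled points are called at an adjusted p under 0.05 and open points are not; HOXA13 at 4.64 and HOXB13 at 4.63 stand at the end of their clusters, and all HOXC points are open.

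The median log2 fold change of 10 tested long non-coding RNAs of the clusters was 0.24. Of the 10, 7 were not called and 3 were called higher, against 21% of all tested genes. Of these 3, HOXA11-AS and HOXA-AS4 lie in the HOXA cluster. HOXA11-AS, antisense to HOXA11, had 172, 154 and 75 counts in KO-labelled libraries, against 17, 19 and 27 in parental-labelled ones, a log2 fold change of 2.73 (SE 0.39, adjusted p 0.00104). HOXA-AS4, listed by RefSeq as an older name of HOXA10-AS, had 117, 127 and 36 counts in KO-labelled libraries, against 3, 0 and 1 in parental-labelled ones, a log2 fold change of 6.07 (SE 0.82, adjusted p 4.2e-04) that was 7.25 without parental-labelled 1; it entered the test through the KO-labelled libraries alone. Both RNAs had their lowest KO-labelled value in KO-labelled 3, as HOXA9 and HOXA11 did. HOXC-AS2 had 17, 21 and 19 counts in KO-labelled libraries, against 11, 9 and 8 in parental-labelled ones, with a log2 fold change of 1.08 (SE 0.27, adjusted p 0.0136); the call was lost without parental-labelled 3 (adjusted p 0.0662) and in DESeq2 (0.0783). HOTAIR, which lies in the HOXC cluster and is reported to bind Polycomb complexes, had 42.3, 31.6 and 32 CPM in KO-labelled libraries and 29.8, 29.3 and 27.9 CPM in parental-labelled ones. It was not called, with a log2 fold change of 0.28 (SE 0.12, adjusted p 0.101), and was called without KO-labelled 3 (adjusted p 0.0271). HOTAIRM1 at -0.04, HOXA-AS2 at 0.40, HOXB-AS1 at -0.45, HOXC-AS1 at -0.40, HOXC-AS3 at 0.19 and HOXC-AS5 at -0.02 were not called either, as log2 fold changes. HOXA-AS3 was too low to test, with 19, 8 and 6 counts in KO-labelled and 2, 1 and 0 in parental-labelled libraries, and HOTTIP, next to HOXA13, had 1, 0 and 4 counts in KO-labelled and 1, 0 and 0 in parental-labelled libraries. In GENCODE, HOXA11 overlaps HOXA11-AS on opposite strands, HOXA9 overlaps HOXA10 on the same strand, and HOXA3 to HOXA7 share ground with HOXA-AS2 or HOXA-AS3. HOXA3 also overlaps HOXA4, HOXA5 and HOXA6 on the same strand. The library kit kept strand but the strand setting of the counting is not given, so reads of such pairs cannot be told apart. Overlaps were looked up by the symbols of the count table. HOXA-AS4 stands there under its older name, so any overlap of it with HOXA9 or HOXA10 was not looked up.

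Genes that flank the clusters gave a measure of the neighbourhood. Next to HOXA, SKAP2 averaged 61.3 ± 7.63 CPM in KO-labelled and 72.3 ± 0.993 CPM in parental-labelled libraries (log2 fold change -0.24, adjusted p 0.0818), and HIBADH averaged 69.8 ± 4.17 CPM in KO-labelled and 69.4 ± 1.42 CPM in parental-labelled libraries. Neither was called, although SKAP2 was without KO-labelled 1 (adjusted p 0.0251). Near HOXB, CALCOCO2 fell by 0.31 on the log2 scale (adjusted p 0.00650), a call lost in both limma fits to FPKM (adjusted p 0.184 in each). Near HOXC, CALCOCO1 at -0.28, ATP5G2 at -0.17, SMUG1 at 0.14 and CBX5 at 0.10 were not called, with CALCOCO1 called without KO-labelled 1 (adjusted p 0.00578). All 4 tested genes near HOXD were called lower: KIAA1715 at -0.56, MTX2 at -0.60, ATP5G3 at -0.96 and ATF2 at -0.57, as log2 fold changes. Among all tested genes 19.8% were called lower. MTX2 kept its call in 2 of the 6 fits that each leave out a library, with adjusted p between 0.0501 and 0.0612 in the others, without KO-labelled 1 or 2 or parental-labelled 2 or 3.

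**Figure D2:**
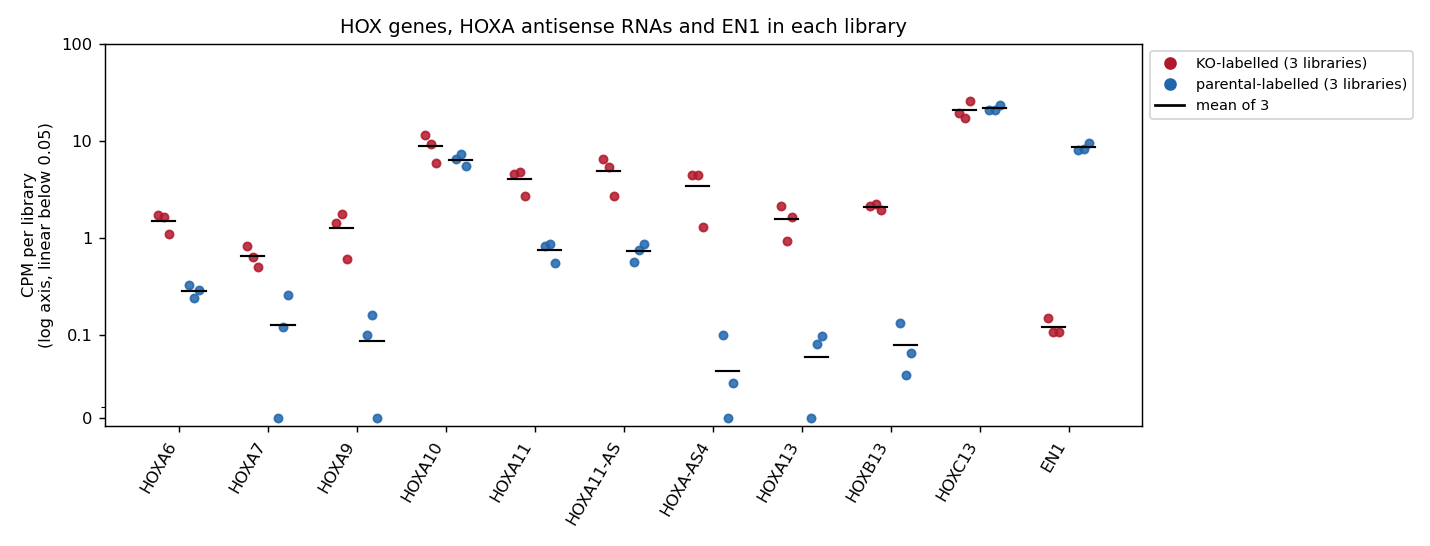
CPM in each library (vertical axis, logarithmic above 0.05 and linear below) for 8 HOX genes, 2 antisense RNAs of the HOXA cluster and EN1, with KO-labelled libraries left of parental-labelled ones and a line at each mean of 3. HOXA13, HOXB13 and HOXA-AS4 lie at or below 0.132 CPM in all parental-labelled libraries, HOXC13 lies near 21 CPM in both groups, and EN1 runs the other way.

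In the HOXB cluster 3 of 6 tested genes were called higher, against 21% of all tested genes. Summed over the cluster, HOXB genes reached 59.6, 50.6 and 43.9 CPM in KO-labelled libraries, against 30.1, 30.7 and 33.6 CPM in parental-labelled ones. HOXB13, a gene of the tail bud and prostate, had 57, 63 and 54 counts in KO-labelled libraries, against 4, 1 and 2 in parental-labelled ones. Its 2.10 ± 0.155 CPM in KO-labelled and 0.0787 ± 0.0478 CPM in parental-labelled libraries correspond to a log2 fold change of 4.63 (SE 0.32, adjusted p 2.9e-05). Its 3 KO-labelled values lay close together, between 1.93 and 2.23 CPM. HOXB3, a hindbrain gene, averaged 23.0 ± 4.43 CPM in KO-labelled and 11.3 ± 0.423 CPM in parental-labelled libraries, a log2 fold change of 1.03 (SE 0.14, adjusted p 9.5e-04). HOXB7, often overexpressed in breast cancer, averaged 17.1 ± 2.31 CPM in KO-labelled and 10.3 ± 0.697 CPM in parental-labelled libraries, a log2 fold change of 0.73 (SE 0.13, adjusted p 0.00260). For these 3 genes, and for HOXB6, which was not called, every KO-labelled library lay above every parental-labelled one. The same held for 27.4% of all tested genes. HOXB13 exceeded the filter level in KO-labelled libraries alone, so for it a difference was a condition of entry.

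HOXB2, HOXB4 and HOXB6 were not called, with log2 fold changes of -0.27 (SE 0.43), -0.38 (SE 0.16, adjusted p 0.0907) and 0.46 (SE 0.17, adjusted p 0.0641). HOXB4, which expands blood stem cells when forced, was called lower without KO-labelled 1, at -0.55 (adjusted p 0.0175), and HOXB6 was called higher without KO-labelled 2, at 0.58 (adjusted p 0.0331). HOXB5, HOXB8 and HOXB9 had at most 4 counts in any library and were not tested. In GENCODE, HOXB3 overlaps HOXB4, HOXB5 and HOXB6, and HOXB7 overlaps HOXB8 and HOXB9, so part of the reads of these genes may be shared.

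The HOXC cluster held the highest summed HOX level, and none of its 8 tested genes was called by edgeR, DESeq2 or limma voom, with 1 at an unadjusted p under 0.05. Over all tested genes edgeR called 40.8%. Summed CPM was 77.2, 72.3 and 81.2 in KO-labelled libraries and 72.5, 71.7 and 78.4 in parental-labelled ones, and the groups overlapped. The median log2 fold change of the 8 genes was 0.04. HOXC10 had one of 0.15 (SE 0.09), HOXC6 one of 0.19 (SE 0.12), HOXC4 one of 0.31 (SE 0.32), HOXC8 one of 0.05 (SE 0.20), HOXC9 one of -0.04 (SE 0.16) and HOXC11 one of 0.03 (SE 0.09). HOXC13, a gene of hair and nail, averaged 20.9 ± 4.44 CPM in KO-labelled and 21.7 ± 1.39 CPM in parental-labelled libraries, a log2 fold change of -0.05 (SE 0.15). HOXC12, its neighbour, had 0.449 ± 0.176 CPM in KO-labelled and 0.835 ± 0.125 CPM in parental-labelled libraries. The HOXC12 groups did not overlap, but the log2 fold change of -0.91 (SE 0.32) missed the threshold with an adjusted p of 0.0534 and passed it without KO-labelled 3, at -1.13 (adjusted p 0.0266). HOXC5 was not tested, with 14, 8 and 7 counts in KO-labelled and 7, 2 and 1 in parental-labelled libraries. HOXC4, HOXC5, HOXC6, HOXC8 and HOXC9 overlap in GENCODE, as do HOXC11 and HOTAIR.

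Compared per transcript length, in the authors' FPKM, HOXC10 and HOXB7 had the highest HOX levels in both groups. HOXC10 had 18.9 ± 0.703 FPKM in KO-labelled and 16.6 ± 0.832 FPKM in parental-labelled libraries, and HOXB7 had 15.6 ± 2.17 FPKM in KO-labelled and 10.7 ± 1.35 FPKM in parental-labelled ones. HOXC13 followed, at 7.71 ± 1.59 FPKM in KO-labelled and 7.68 ± 0.592 FPKM in parental-labelled libraries. HOXB3, with 6.87 ± 1.13 FPKM in KO-labelled and 3.46 ± 0.104 FPKM in parental-labelled libraries, lay within the spread of HOXC13 in the KO-labelled group and well below it in the parental-labelled group. The genes with the largest fold changes stayed low: HOXA11 had 1.69 ± 0.473 FPKM in KO-labelled and 0.306 ± 0.0693 FPKM in parental-labelled libraries, and HOXA9 had 1.57 ± 0.679 FPKM in KO-labelled and 0.0418 ± 0.0282 FPKM in parental-labelled libraries. HOXB13 and HOXA13, at 0.530 ± 0.0462 and 0.366 ± 0.163 FPKM in KO-labelled libraries and 0.0193 ± 0.0119 and 0.0236 ± 0.0265 FPKM in parental-labelled ones, remained far below their paralog HOXC13.

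EN1 ran opposite to the HOX genes and had the largest fold change of the 53 tested genes that has counts in both groups. It had 4, 3 and 3 counts in KO-labelled libraries, against 247, 207 and 297 in parental-labelled ones. That is 0.121 ± 0.0255 CPM in KO-labelled and 8.64 ± 0.786 CPM in parental-labelled libraries, a log2 fold change of -6.11 (SE 0.24, adjusted p 2.2e-06), or 69.2-fold lower. EN1 patterns the midbrain, the limb's ventral side and sweat glands. In FPKM it had 0.0643 ± 0.0563 in KO-labelled and 2.99 ± 0.282 in parental-labelled libraries. Among all tested genes 0.706% were called lower by over 8-fold, and EN1 was the 1 member so called. EN1 exceeded the filter level in parental-labelled libraries alone, so a difference was a condition of its entry. It cannot be weighed against this share. Its relative EN2 was not tested, with 0, 1 and 1 counts in KO-labelled and 2, 1 and 3 in parental-labelled libraries.

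Of the LIM-homeodomain genes, which pair a homeodomain with protein-binding LIM domains, all 4 tested were called, 3 higher and 1 lower. By comparison, 40.8% of all tested genes were called. LHX1, which acts in head and kidney formation, had 139, 197 and 111 counts in KO-labelled libraries, against 26, 12 and 19 in parental-labelled ones, a log2 fold change of 3.03 (SE 0.30, adjusted p 1.9e-04). LHX6, a factor of cortical interneurons, had 57, 57 and 108 counts in KO-labelled libraries, against 29, 20 and 20 in parental-labelled ones, with a log2 fold change of 1.74 (SE 0.33, adjusted p 0.00412). LHX2, which acts in eye and hair follicle, averaged 6.83 ± 0.440 CPM in KO-labelled and 4.36 ± 0.320 CPM in parental-labelled libraries, a log2 fold change of 0.65 (SE 0.13, adjusted p 0.00475). LHX4, a pituitary factor, fell to 11.6, 8.42 and 5.14 CPM in KO-labelled libraries, against 23.1, 21.3 and 19.6 CPM in parental-labelled ones, with a log2 fold change of -1.35 (SE 0.24, adjusted p 0.00308); the limma fits to FPKM gave adjusted p of 0.0559 and 0.0651. LHX4 overlaps ACBD6 on the opposite strand in GENCODE, so part of its reads may be shared. LHX3 and LHX9 were not tested.

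The partners of LIM-homeodomain proteins moved in both directions, with 4 called higher and 1 lower of 7 tested. The shares over all tested genes were 21% higher and 19.8% lower. LMO1, a LIM-only protein that takes up the same cofactors, had 15, 15 and 2 counts in KO-labelled libraries, against 213, 167 and 229 in parental-labelled ones, a log2 fold change of -4.17 (SE 0.33, adjusted p 6.3e-05). LDB1, the shared cofactor of these proteins, averaged 61.3 ± 5.61 CPM in KO-labelled and 44.6 ± 2.24 CPM in parental-labelled libraries, a log2 fold change of 0.46 (SE 0.09, adjusted p 0.00442). SSBP4 and LMO2 were called at 0.51 (adjusted p 0.0245) and 0.95 (adjusted p 0.0309). Both calls depended on single libraries: SSBP4 lost its call without parental-labelled 1 or 2 (adjusted p 0.0947 and 0.0939), and LMO2 was called only without KO-labelled 3 among the 6 fits that leave out a library, with adjusted p between 0.0747 and 0.113 without each of the others.

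Of the TALE partners of HOX proteins, MEIS1 and MEIS2 were called higher and PBX4 lower. Of all tested genes, 21% were called higher and 19.8% lower. MEIS1, which binds DNA with HOXA9 in leukaemia, averaged 20.4 ± 2.51 CPM in KO-labelled and 11.0 ± 0.737 CPM in parental-labelled libraries, a log2 fold change of 0.89 (SE 0.12, adjusted p 7.5e-04). MEIS2 averaged 28.3 ± 2.99 CPM in KO-labelled and 21.2 ± 1.01 CPM in parental-labelled libraries, with a log2 fold change of 0.42 (SE 0.10, adjusted p 0.0129). PBX4 had 12, 17 and 17 counts in KO-labelled libraries, against 47, 41 and 45 in parental-labelled ones, a log2 fold change of -1.46 (SE 0.22, adjusted p 0.00122). PBX2 at -0.01 and PBX3 at -0.07 were not called, and PBX3 had 4.07 CPM in KO-labelled 3, against 10.1 and 9.30 CPM in the other KO-labelled libraries. MEIS3 was not tested, with 16, 22 and 3 counts in KO-labelled and 1, 1 and 0 in parental-labelled libraries, 21.4-fold higher with a 95% counting interval of 5.57 to 183. MEIS2 lost its call without parental-labelled 2 or 3 (adjusted p 0.0593 and 0.0603). In GENCODE, MEIS1 overlaps MEIS1-AS3 on the opposite strand and PBX4 overlaps PHF5CP on the same strand, so part of their reads may be shared.

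Of 4 further TALE genes, TGIF2 and PKNOX2 were called higher, against 21% of all tested genes. TGIF2, a repressor of TGF-beta and retinoid targets, had 419, 292 and 332 counts in KO-labelled libraries, against 46, 51 and 54 in parental-labelled ones, a log2 fold change of 2.85 (SE 0.21, adjusted p 4.8e-05). PKNOX2 had 23, 15 and 41 counts in KO-labelled libraries and 0 in each parental-labelled one, at least 27.5-fold higher when the parental-labelled group is set to a floor of 3 counts in all (adjusted p 0.00344, entering the test through the KO-labelled libraries alone). PKNOX1 at -0.04 and TGIF1 at -0.10 were not called.

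**Figure D3:**
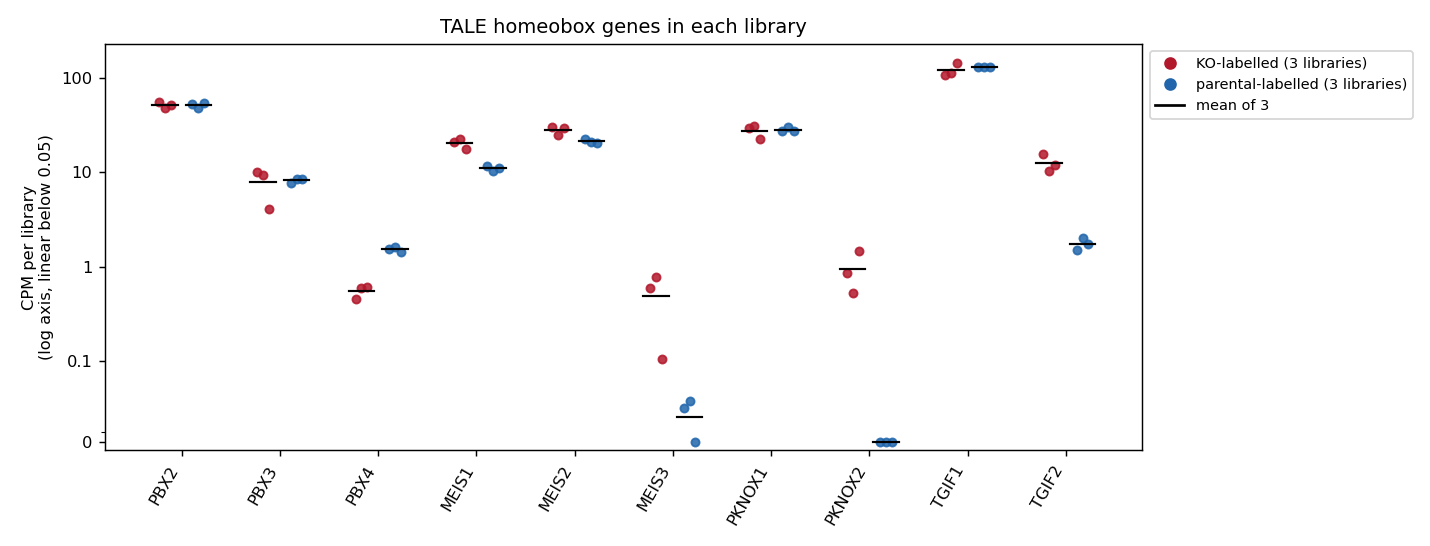
CPM in each library (vertical axis, logarithmic above 0.05 and linear below) for the TALE homeobox genes named here, with KO-labelled libraries left of parental-labelled ones and a line at each mean of 3. MEIS1, MEIS2, PKNOX2 and TGIF2 lie higher and PBX4 lower in all KO-labelled libraries, and PBX3 in KO-labelled 3 lies apart at 4.07 CPM.

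The Iroquois genes, expressed at high levels in this line, fell or were not called. IRX6 averaged 46.0 ± 3.14 CPM in KO-labelled and 78.0 ± 3.19 CPM in parental-labelled libraries, a log2 fold change of -0.76 (SE 0.08, adjusted p 2.1e-04). IRX2 averaged 42.5 ± 3.90 CPM in KO-labelled and 56.4 ± 4.11 CPM in parental-labelled libraries, at -0.41 (SE 0.09, adjusted p 0.0102), and IRX5 averaged 42.4 ± 4.82 CPM in KO-labelled and 54.5 ± 2.82 CPM in parental-labelled libraries, at -0.36 (SE 0.10, adjusted p 0.0202). IRX3, which lies in one genomic group with IRX5 and IRX6, was not called, at -0.01 (SE 0.11). IRX2 lost its call without parental-labelled 2 (adjusted p 0.0502) and had a log2 fold change of -0.04 in both limma fits to FPKM (adjusted p 0.826 and 0.827), and IRX5 lost its call without parental-labelled 2 or 3 (adjusted p 0.0741 and 0.0728). IRX1 and IRX4 had at most 1 count in any library.

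Of the DLX genes, which act in the jaw and limb, DLX4 was called higher, with 111, 78 and 61 counts in KO-labelled libraries, against 34, 14 and 36 in parental-labelled ones, and a log2 fold change of 1.64 (SE 0.33, adjusted p 0.00554). DLX1 at -0.41, DLX2 at -0.60 and DLX3 at -0.30 were not called, and all 3 were called lower without KO-labelled 3, at -0.61, -0.72 and -0.47 (adjusted p 0.0166, 0.0436 and 5.3e-04). Of the sine oculis genes, SIX4, a factor of muscle development, averaged 26.7 ± 3.15 CPM in KO-labelled and 18.5 ± 0.844 CPM in parental-labelled libraries, a log2 fold change of 0.53 (SE 0.11, adjusted p 0.00527). SIX2 at 0.47, SIX3 at 0.28 and SIX5 at -0.01 were not called, with SIX2 called at 0.74 (adjusted p 0.0143) without KO-labelled 3. DACH1, a corepressor that works with these proteins, had 0, 1 and 0 counts in KO-labelled libraries, against 19, 20 and 23 in parental-labelled ones, 59.3-fold lower with a counting interval of 10.3 to 2380 (adjusted p 1.6e-04, entering the test through the parental-labelled libraries alone). EYA2 at -0.22 and EYA3 at 0.15 were not called.

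Several NKX and MSX genes that were at or near 0 in parental-labelled libraries were present in KO-labelled ones. NKX2-5, a heart factor, had 14, 11 and 22 counts in KO-labelled libraries and 0 in each parental-labelled one, at least 16.4-fold higher by the same floor (adjusted p 0.00219). NKX3-2, a factor of cartilage, had 9, 2 and 6 counts in KO-labelled libraries and 0 in each parental-labelled one, at least 5.92-fold higher. NKX2-8 had 5, 7 and 10 counts in KO-labelled and 0, 0 and 1 in parental-labelled libraries, 23.0-fold higher with a counting interval of 3.72 to 949. MSX1, a gene of face and limb buds, had 33, 9 and 8 counts in KO-labelled and 1, 0 and 0 in parental-labelled libraries, 52.3-fold higher with an interval of 8.96 to 2105. NKX3-2, NKX2-8 and MSX1 had too few counts to be tested, and the MSX1 counts came mostly from KO-labelled 1. NKX1-2 went the other way and had 64, 59 and 48 counts in KO-labelled libraries, against 119, 118 and 134 in parental-labelled ones, a log2 fold change of -1.05 (SE 0.17, adjusted p 0.00200). PITX1, a hindlimb factor, was not called, at -0.13 on the log2 scale. DLX5, EMX1, NKX2-1, NKX2-3, NKX6-1 and PITX3 had at most 4 counts in any library and were not tested.

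**Figure D4:**
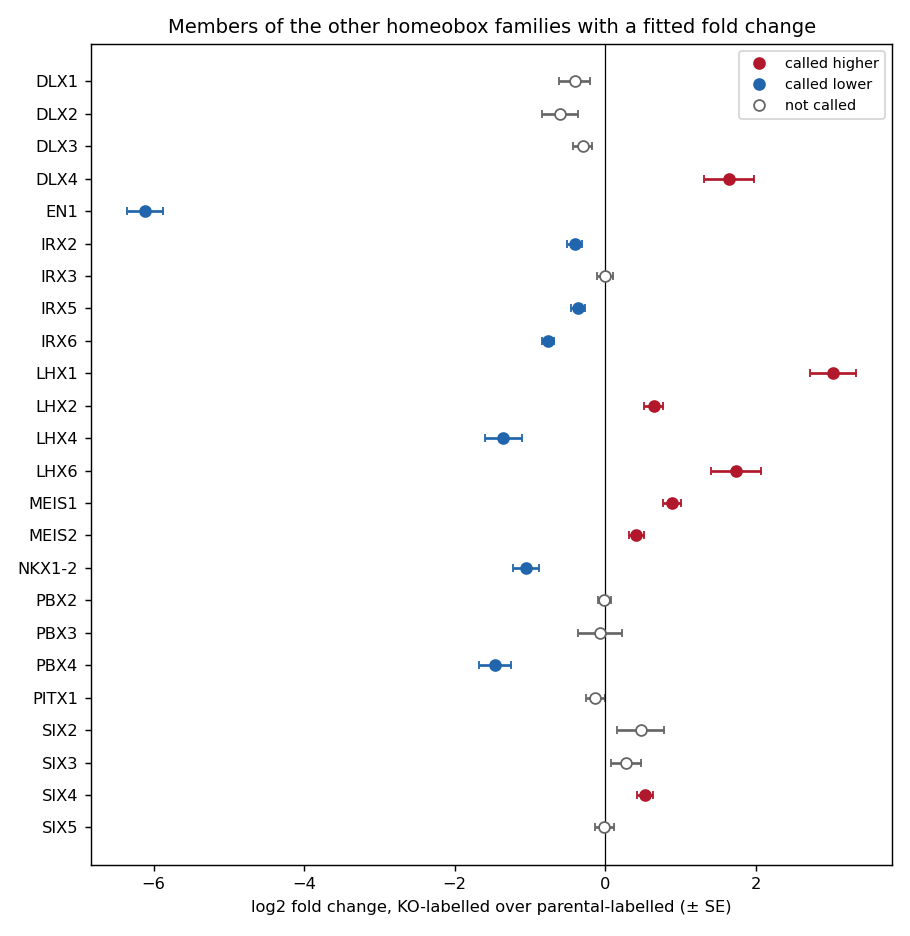
Log2 fold change of KO-labelled over parental-labelled libraries (horizontal axis, bars are the SE of edgeR's fit) for tested members of the other homeobox families, ordered by family. The plot leaves out NKX2-5, which has 0 parental-labelled counts; EN1 at -6.11 and LHX1 at 3.03 are the farthest points on either side, and the remaining called genes lie on both sides of 0.

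The regulators known to hold HOX clusters silent or active were read from 32 tested Polycomb and Trithorax genes, of which 13 were called higher, 2 lower and 17 were not called, with a median log2 fold change of 0.16. In the background of all tested genes 40.8% were called, 21% higher and 19.8% lower. CBX2, a Polycomb reader of histone H3 methylation, averaged 137 ± 14.6 CPM in KO-labelled and 60.8 ± 1.72 CPM in parental-labelled libraries, a log2 fold change of 1.17 (SE 0.09, adjusted p 5.2e-05). Its relatives CBX8 and CBX6 had log2 fold changes of 0.78 (adjusted p 3.8e-04) and 1.0 (adjusted p 0.00136). KDM6A, a demethylase that removes the Polycomb mark, fell by 0.77 on the log2 scale (adjusted p 3.9e-04), to 31.6 ± 2.68 CPM in KO-labelled libraries, against 53.9 ± 3.29 CPM in parental-labelled ones. Of 6 tested Groucho corepressors, which many homeodomain proteins recruit, TLE3 was called higher at 0.81 (SE 0.09, adjusted p 2.6e-04) and TLE1 lower at -0.35 (SE 0.08, adjusted p 0.0130). TLE3 averaged 484 ± 48.4 CPM in KO-labelled and 276 ± 15.1 CPM in parental-labelled libraries.

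Homeobox genes that the symbols did not take in were counted the same way: of 85 listed, 27 were tested, and 15 were called higher, 1 lower and 11 not called, with a median log2 fold change of 0.62. The background shares were 21% higher and 19.8% lower. ALX4 and another of the 15 exceeded the filter level in KO-labelled libraries alone, so the count of 15 rests in part on that condition. PAX7, a factor of muscle stem cells and neural crest, had 1973, 1873 and 1518 counts in KO-labelled libraries, against 150, 131 and 179 in parental-labelled ones, a log2 fold change of 3.61 (SE 0.14, adjusted p 2.2e-06). ALX4, a factor of skull and limb, had 66, 43 and 51 counts in KO-labelled libraries and 2 in each parental-labelled one, with a log2 fold change of 4.72 (SE 0.39, adjusted p 5.4e-05), and entered the test through the KO-labelled libraries alone. ONECUT2, a liver and neural factor, rose by 1.31 (SE 0.13, adjusted p 2.0e-04) and CUX1, a broadly expressed repressor, by 0.62 (SE 0.07, adjusted p 4.4e-04), both on the log2 scale. CUX1 had a log2 fold change of 0.00 in the limma fits to FPKM (adjusted p 0.982 and 0.985).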

How the data were processed

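Values of 2 kinds, both made by the authors, were used for 6 MDA-MB-468 libraries. The deposited count table holds whole-number read counts per gene symbol, and the deposited FPKM table holds decimals per length and depth. Per the submitters' processing notes, Cufflinks 2.0.2, SAMtools 0.1.19 and STAR 2.4.0f1 were used on hg19. Which program counted, with which annotation and strand setting, is not given in the sources used here. Counts were tested with edgeR 4.0.16 (R 4.3.3): filterByExpr with a minimum count of 10 and a minimum total of 15, TMM scaling, quasi-likelihood F test in its current form, no covariate, Benjamini-Hochberg adjustment over 17420 genes, threshold 0.05. The SE is the fold change divided by the square root of F. Intervals (exact binomial, 95%) and floors (3 counts over a group) cover counting error only. The steps were tested on simulated data. FPKM values were used for levels between genes and for limma 3.58.1 with pseudocounts of 1 and 0.1; DESeq2 1.42.0, limma voom, other scalings and filters, a test against a 1.5-fold change and leaving out each library were the other alternatives. Promoters came from RefSeq and gene overlaps from GENCODE, both on GRCh38. The members and lists were chosen with earlier results of these data known. A few members are not reported here, though counts over members include them. Named are the other members, all tested non-coding and flanking genes of the clusters, and up to 4 called genes with the smallest p from each further list. Libraries are numbered in the order of deposition.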

Additional observations from a re-analysis of the deposited data

How the results depend on the processing

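Of the 27 called members, 20 were called with each library left out in turn, and 25 in all of the fits with DESeq2 size factors, library totals, no filter, DESeq2, limma voom and the legacy test. A filter of 1 CPM in 3 libraries tested and called 23 of the 27 and left HOXA7, HOXA9, HOXA13 and NKX2-5 untested. No called fold change reversed its sign under any alternative run. A test against a 1.5-fold change called 6 HOX genes higher, 5 other members higher and 4 lower, and 1922 genes in all against 7105. With a library left out, HOX genes called higher numbered 9 to 12, HOX genes called lower 0 to 1, other members called higher 8 to 10 and other members called lower 5 to 11, against 11, 0, 8 and 8 with all libraries. The single HOX gene called lower was HOXB4 without KO-labelled 1 and HOXC12 without KO-labelled 3, and the count of 5 came without parental-labelled 2. Scaling by library totals moved 1 member below and 1 above the threshold. The legacy form of the quasi-likelihood test, chosen after seeing the data, changed no call among members. On the log2(FPKM + pseudocount) scale low genes have smaller fold changes by construction. No paired analysis was possible because the parental-labelled libraries are wells of a plate and the KO-labelled libraries are separate populations that share no number with them. Depth limits the 20 untested members, and the fitted sizes of HOXA9, HOXA13 and HOXB13 rest on at most 7 parental-labelled counts.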
